A study of Mus musculus with 4 samples.

Results

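The axon guidance genes of the mouse were followed here in single cells sorted from the injured and uninjured spinal cord. They were taken by name from the gene features of the matrices: the Eph receptors (Epha, Ephb) and ephrins (Efna, Efnb), the semaphorins (Sema) with their plexin (Plxn) and neuropilin (Nrp1, Nrp2) receptors, the Slits and Robo receptors, the netrins (Ntn) and the netrin receptor Dcc. This gave 65 of 32287 gene features, of which 2 are added sequences (tdTomato-WPRE and EGFP). The mice carried tdTomato under Cx30, a gap junction gene of astrocytes (Gjb6), through a tamoxifen-inducible Cre, and all of them, controls included, received an AAV library of enhancer reporters in the blood. The injured group had a contusion of the cord and was sampled at 3 days post injury, and the uninjured group was not injured. The series' design text gives a later day beside the contusion model, while the treatment text of the labels gives 3 days, which is used here. Segments of 5 mm around the injury, or of uninjured adult cords at a matching level, were digested and tdTomato-positive cells were sorted. Each of the 2 conditions had 1 gene expression library, pooled from 1 to 2 animals per sex, so no difference between conditions has a replicate check and no p-value was computed.

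The injured library held 879 cells with 8499672 gene UMIs (unique molecular identifiers, each counting 1 captured RNA molecule) and the uninjured library 4159 cells with 15543460. Median UMIs per cell were 6816 and 3343. The libraries shared 7 cell barcodes. Although both sexes are named for both conditions, a UMI of Xist, the RNA of the inactive X chromosome in females, was found in 28.7% of injured and 0.120% of uninjured cells. Values in cells scored male (a UMI of a Y-linked gene and none of Xist) are given for astrocyte-like cells where they lay outside the counting interval of all cells, and beside some other results. Cells were grouped into classes by clustering without the guidance genes, and each class was named by markers. Astrocyte-like cells numbered 385 injured and 3061 uninjured (43.8% and 73.6%), ependymal-like 144 and 31, microglia-like 126 and 31, endothelial-like 70 and 26, neuron-like 48 and 307, fibroblast-like 43 and 95, and OPC-like (oligodendrocyte progenitor) 41 and 14. All 10 astrocyte markers were at 10 CPM or more in the astrocyte-like cells of both conditions. These are shares of sorted cells, not of the tissue.

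Guidance cues steer growing axons and migrating cells by attraction or repulsion. Ephrins and Eph receptors are both membrane-bound and signal in both directions at cell contacts. Semaphorins are secreted or membrane proteins read by plexins, with neuropilins as co-receptors for the secreted class 3 members. Slits repel through Robo receptors, and netrin-1 acts through Dcc. In the adult cord these genes remain expressed by glia, and they are known as part of the environment that axons meet at a lesion. Levels below are CPM, the UMIs of a gene per 1000000 gene UMIs of a class. The reads are 3′ tags not divided by gene length, so each gene is compared across cells and conditions, and not with other genes. A change is named where the log2 ratio of CPM + 1 was at least 1 in size (2-fold) and the 95% interval of the ratio lay on the same side of 1. Intervals cover counting error only.

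In astrocyte-like cells, 2 guidance genes were higher after injury, the plexin Plxnb2 and the semaphorin Sema6a, and 3 were lower, the repellent Slit2, the receptor Epha4 and the netrin Ntn1. Plxnb2 was 3.76-fold higher and Slit2 4.34-fold lower. Of the 65 members, 21 passed a filter of a mean of 10 CPM over the conditions. Robo1 and Robo2, 3 of the 4 Eph receptors and 4 of the 5 semaphorins among them differed by less than 2-fold. The 2 higher are 9.52% of these 21, beside 13.4% of the 9433 genes past the same filter. The 3 lower are 14.3%, beside 7.06% of all genes. The median log2 ratio was -0.38 over the 21 members and 0.02 over all genes. By the interval alone, with no limit on the fold, 5 members were higher, where 34.3% of all genes were, and 12 were lower, where 31.0% were.

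**Figure D1:**
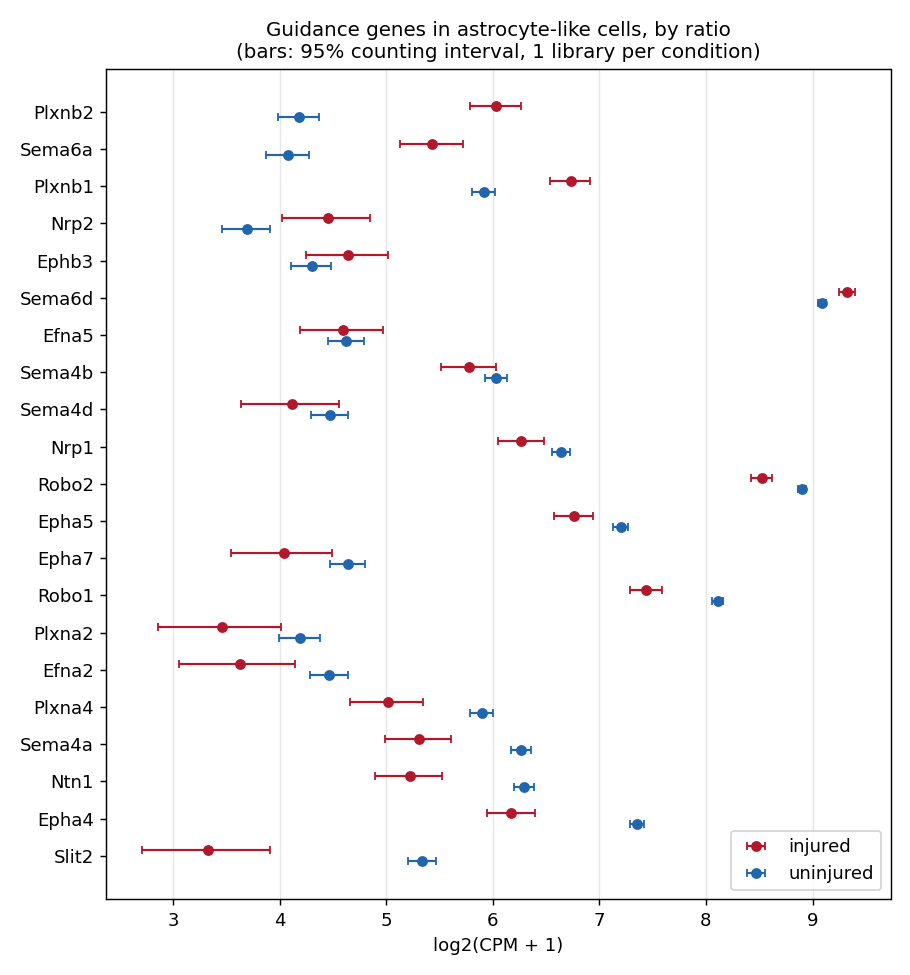
Level of the 21 guidance genes past the filter in astrocyte-like cells, as log2(CPM + 1) on the horizontal axis, ordered by the ratio of injured (red) to uninjured (blue) cells. Bars are 95% counting intervals of 1 library each. Plxnb2 at the top was at 64.3 against 17.1 CPM and Slit2 at the bottom at 9.06 against 39.3 CPM, and their intervals lie apart.

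Plexins are the receptors of semaphorins. Plxnb2 (ENSMUSG00000036606, GRCm38 chr15:89155549-89180788, minus strand) was at 64.3 CPM in injured cells (142 UMIs, 54.2 to 75.8) and 17.1 CPM in uninjured cells (197 UMIs, 14.8 to 19.7). Its log2 ratio was 1.85 and its ratio 3.76 (3.01 to 4.69). Under the alternatives tried its log2 ratio ranged from 1.45 to 1.95, all on the same side of the threshold. Plxnb1, a receptor of Sema4d, was at 105 against 59.4 CPM, a log2 ratio of 0.81 that stayed under 2-fold but reached 1.07 in male cells. Both class A plexins past the filter were lower by less than 2-fold. Plxna4 was at 31.2 against 58.6 CPM (log2 ratio -0.89, and -0.51 in male cells) and Plxna2 at 9.96 against 17.3 CPM (-0.74). Plxna1, under the filter, was at 10.4 against 5.38 CPM (0.84). Neuropilin Nrp1 was at 76.1 against 98.6 CPM (-0.37). Nrp2 was at 20.8 against 11.9 CPM (0.76), but 34.8% of its injured UMIs came from 1 cell and without the cells with most UMIs its log2 ratio was 0.22. In male cells it turned to -0.79.

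Among the ligands of these receptors, Sema6a, a transmembrane semaphorin that binds class A plexins, was at 42.1 CPM in injured cells (93 UMIs, 34.0 to 51.6) and 15.9 CPM in uninjured cells (183 UMIs, 13.7 to 18.4). Its log2 ratio was 1.35 and its ratio 2.65 (2.04 to 3.42). A single cell held 18.3% of the injured UMIs, and without it and its uninjured counterpart the log2 ratio was 1.10. In cells chosen by an Aldh1l1 UMI, whatever their cluster, it was 0.62, under the threshold. Under the other choices of cells tried it stayed past the threshold, and the cause was not tested. Sema6d, also of class 6, was at 639 against 544 CPM (0.23, and 0.42 in male cells), with 1411 and 6269 UMIs behind the values. Sema4a was at 38.5 against 76.1 CPM (-0.96), just under the threshold. Sema4b and Sema4d, membrane semaphorins of class 4, had log2 ratios of -0.25 and -0.36, with intervals that included no difference.

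Slit2 (ENSMUSG00000031558, GRCm38 chr5:47983138-48307733, plus strand) had the lowest log2 ratio of the 21 members past the filter. It was at 9.06 CPM in injured cells (20 UMIs, 5.53 to 14.0) and 39.3 CPM in uninjured cells (453 UMIs, 35.8 to 43.1). Its log2 ratio was -2.00 and it was 4.34-fold lower (2.78 to 7.18). Of the 20 injured UMIs, 30% came from 1 cell, and without the cells with most UMIs the log2 ratio was -2.39. In cells with an Aldh1l1 UMI, taken from any class, it was -0.60, under the threshold. Slit2 was at 65.5 CPM in injured ependymal-like cells, and the part of other classes in that value was not tested. The receptors of Slit were less changed. Robo1 was at 172 against 275 CPM (log2 ratio -0.67, and -0.49 in male cells), and Robo2 at 366 and 477 CPM (-0.38). Both intervals lay below 1 and both differences were under 2-fold. Ntn1 (ENSMUSG00000020902, GRCm38 chr11:68209364-68400823, minus strand), the secreted attractant netrin-1, was at 36.2 CPM (80 UMIs, 28.7 to 45.1) against 77.2 CPM (889 UMIs, 72.2 to 82.4). Its log2 ratio was -1.07, and it was under 2-fold with a pseudocount of 10 CPM (-0.92), in cells with an Aldh1l1 UMI (-0.71) and with the unnamed cluster added to the astrocyte-like cells (-0.99). Dcc, its receptor, had 3 injured and 28 uninjured UMIs in astrocyte-like cells and did not pass the filter.

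Epha4 (ENSMUSG00000026235, GRCm38 chr1:77367185-77515088, minus strand), a receptor that binds ephrins of both the A and the B class, was at 71.1 CPM in injured cells (157 UMIs, 60.4 to 83.1) and 163 CPM in uninjured cells (1875 UMIs, 156 to 170.3). Its log2 ratio was -1.18 and it was 2.29-fold lower (1.94 to 2.71). In cells scored male the log2 ratio was -0.64, under the threshold, while those of Slit2 and Ntn1 were -2.22 and -1.12. Epha5 was at 107 against 146 CPM (-0.44, and -0.72 in male cells). Epha7 was at 15.4 against 23.9 CPM (-0.60), and in cells with an Aldh1l1 UMI its log2 ratio turned to 0.25. Ephb3 was at 24.0 against 18.7 CPM (0.35), with an interval that included no difference. Of the ephrins, Efna2 was at 11.3 against 21.1 CPM (-0.84). Efna5 was at 23.1 against 23.6 CPM (-0.03, and 0.76 in male cells), with a ratio of 0.98 and an interval of 0.71 to 1.32.

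The other 44 members were under the filter, at no more than 10.4 CPM in injured and 9.90 CPM in uninjured astrocyte-like cells, and 4 of them had no UMI in either. Their differences rest on at most 23 injured UMIs a gene. For 10 of the 44 the interval lay above 1 and for 2 it lay below. Without a filter on low values, 7 of them would be called higher: Ephb2 (7.70 against 0.61 CPM), Sema3d, Sema4f, Plxnd1 (9.96 against 0.52 CPM), Robo3, Sema3b and Epha3. These 7 are named after their values were seen, and Epha3, Robo3 and Sema4f had 3, 4 and 4 injured UMIs. The share of all genes under the filter is given for none of these counts. Whether low members differ from other low genes is thus not shown.

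The astrocyte-like cells came from 5 clusters, and the conditions hardly shared them. Cluster 1, led by Tgm1, Lcn2, Gfap and Timp1, held 83.1% of the injured and 0.392% of the uninjured astrocyte-like cells, and the 4 other clusters held 536 to 1130 uninjured cells each. The injured value of each member was set beside its range over these 4 uninjured clusters. It lay above the range for 4 members (Nrp2, Plxnb1, Plxnb2 and Sema6a), beside 36.3% of all genes, and below it for 12, beside 32.1% of all genes. Plxnb2 ranged from 13.0 to 25.2 CPM over the uninjured clusters, below its injured 64.3 CPM. Slit2 ranged from 27.1 to 66.5 CPM, above its injured 9.06 CPM, and differed 2.45-fold (1.78 to 3.41) between its lowest and highest uninjured cluster. Plxnb1 reached 104.6 CPM in uninjured cluster 4, next to its injured 105.1 CPM, so its difference between conditions was no larger than its spread between uninjured clusters. For 13 of the 21 members cluster 4 was the highest and cluster 9 the lowest of the uninjured clusters. The share of all genes with this order is not given, so the count is not read as a trait of the members. Uninjured cells of cluster 4 were also the shallowest of the 4, with a median of 2135 UMIs against 3909 in cluster 9. The 65 injured cells outside cluster 1 held 14 UMIs of Plxnb2 (52.5 CPM, 28.7 to 88.1), 5 of Sema6a (18.8 CPM, 6.09 to 43.8), 25 of Epha4 (93.8 CPM, 60.7 to 139) and none of Slit2 (0 to 13.8 CPM).

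**Figure D2:**
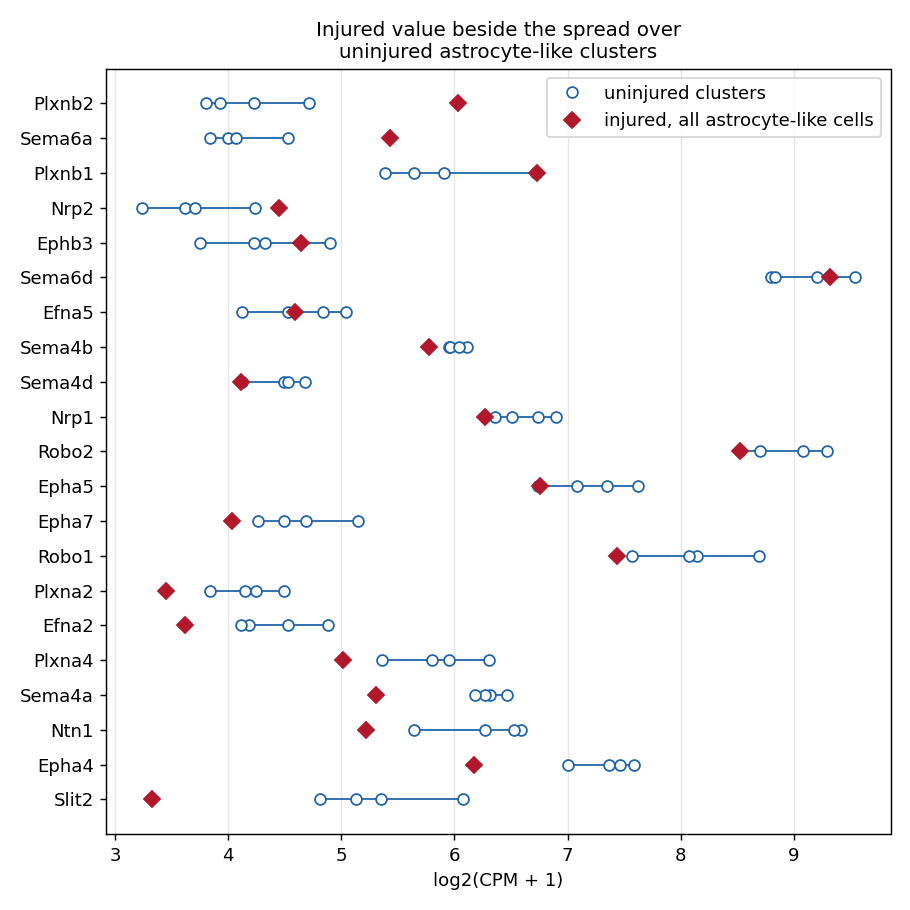
The same 21 genes with the level in all injured astrocyte-like cells (red diamonds) beside that in each of the 4 uninjured astrocyte-like clusters (open blue circles, joined by a line), as log2(CPM + 1). The diamond lies right of the circles for 4 genes, left of them for 12 and within them for 5.

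Markers of other cell types were low in these cells. The 8 microglia markers summed to 65.2 CPM in injured astrocyte-like cells, 0.308% of their level in microglia-like cells, and the endothelial list was at 0.165% of its own class. The ependymal list was higher in injured (138 CPM, 4.10% of its class) than in uninjured astrocyte-like cells (41.8 CPM, 0.698%). Its part in the results was not tested. The oligodendrocyte progenitor and neuron lists stood at 9.48% and 9.38% of their classes in injured and 6.86% and 6.61% in uninjured cells.

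The sequences before the transcription starts of Plxnb2 and of the 2 members with the lowest ratios, Slit2 and Epha4, are shown with a search for AP-1, a family of transcription factors activated after injury, which the study's question on enhancers concerns. Starts are from RefSeq on GRCm38.p6, each sequence is the 250 bases before the start, read 5′ to 3′ on the strand of the gene, and a match of the AP-1 motif TGANTCA on either strand (the motif reads the same on both) would be in capitals. Sema6a is named only, and the sequence of Ntn1 is not shown.
Plxnb2, chr15:89180789-89181038, minus strand: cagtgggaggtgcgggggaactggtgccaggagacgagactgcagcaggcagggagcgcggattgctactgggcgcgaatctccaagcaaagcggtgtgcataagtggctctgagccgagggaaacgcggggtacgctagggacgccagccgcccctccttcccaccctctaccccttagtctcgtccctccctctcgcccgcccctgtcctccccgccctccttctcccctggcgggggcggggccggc
Slit2, chr5:47982905-47983154, plus strand: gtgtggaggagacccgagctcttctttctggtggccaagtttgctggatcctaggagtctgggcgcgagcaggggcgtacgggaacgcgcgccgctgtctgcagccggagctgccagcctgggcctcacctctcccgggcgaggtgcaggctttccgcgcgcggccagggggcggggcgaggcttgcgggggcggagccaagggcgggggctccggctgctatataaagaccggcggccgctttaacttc
Epha4, chr1:77515089-77515338, minus strand: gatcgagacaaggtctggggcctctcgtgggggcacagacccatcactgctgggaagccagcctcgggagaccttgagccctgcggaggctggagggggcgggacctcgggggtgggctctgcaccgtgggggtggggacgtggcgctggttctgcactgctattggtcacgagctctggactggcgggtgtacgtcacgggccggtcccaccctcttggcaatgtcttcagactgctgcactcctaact
No motif was present in these 3 sequences, nor before a second Plxnb2 start (chr15:89173952-89174201). Among all 32851 promoters of the table, 2217 (6.75%) held it in the same window, beside 3 of the 72 promoters of members (4.17%). Counted by gene, 3 of the 56 members with an entry held it, Sema4c, Sema4d and Sema6b. The windows of Plxnb2, Slit2 and Epha4 were rich in G and C, at 69.2%, 69.6% and 66.0%. Absence here says only that these letters are not in this window.

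Co-receptors, other guidance cues and intracellular effectors were described as a list of 66 genes, of which 47 passed the filter in astrocyte-like cells. Of these, 8 were higher (17.0%, beside 13.4% of all genes) and 7 lower (14.9%, beside 7.06%), with a median log2 ratio of -0.34. The 4 with the highest log2 ratios were Met, Dpysl3, Rtn4 and Ntng1. Met, the receptor of hepatocyte growth factor and a partner of class B plexins, had 46 injured UMIs and 1 uninjured UMI (20.8 against 0.09 CPM, log2 ratio 4.33). Dpysl3, a cytoplasmic mediator of semaphorin signals, was at 30.3 against 1.30 CPM (3.77). Rtn4, which encodes the growth inhibitor Nogo, was at 678 against 140.5 CPM (2.26), with 1498 and 1618 UMIs. Ntng1, a membrane-anchored netrin relative, was at 22.2 against 5.12 CPM (1.92). The GTPase Rhoa (334 against 139.9 CPM), the actin-severing Cfl1, Rras and the kinase Pak1 were also higher. The 4 lowest were Flrt1 (61.1 against 172 CPM, -1.48), Lingo1 (12.2 against 35.2 CPM, -1.46), Kalrn (67.9 against 183 CPM, -1.42) and Flrt2 (58.9 against 154 CPM, -1.37). Flrt2 is a ligand of Unc5 receptors and Lingo1 a co-receptor for Nogo.

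**Figure D3:**
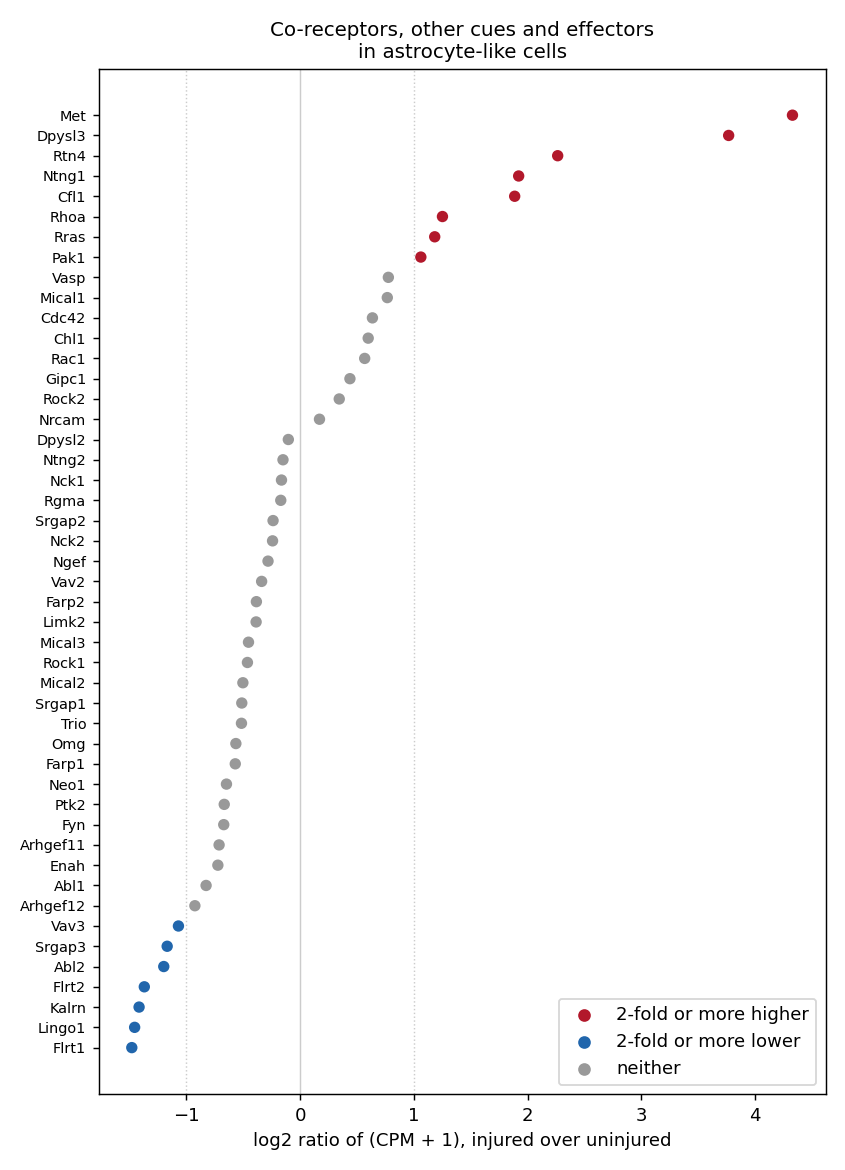
Log2 ratio of CPM + 1, injured over uninjured astrocyte-like cells, for the 47 genes of the co-receptor and effector list past the filter. Red points are the 8 genes higher by 2-fold or more, blue points the 7 lower, grey points neither, and dotted lines mark log2 ratios of -1 and 1. Met lies highest at 4.33 and Flrt1 lowest at -1.48.

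The next question was which sorted cells carried each ligand and receptor after injury. Over the 7 classes of at least 20 injured cells, 40 members had 20 or more UMIs in the class where they were highest, and for 28 of them (70.0%, beside 48.7% of all genes so counted) the interval lay above the next class. The highest class was endothelial-like for 10 of the 40 (14.2% of all genes), ependymal-like for 8 (18%), OPC-like for 6 (22.0%), astrocyte-like for 5 (16.5%), neuron-like for 5 (2.19%), fibroblast-like for 4 (11.8%) and microglia-like for 2 (15.4%). The astrocyte-like cells were highest for Sema6d, Sema4a, Sema4b, Plxnb1 and Ephb3, each with its interval above the next class. Sema6d stood at 639 CPM in astrocyte-like and 327 CPM in ependymal-like cells, and Plxnb1 at 105.1 CPM beside 47.9 CPM in neuron-like cells.

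**Figure D4:**
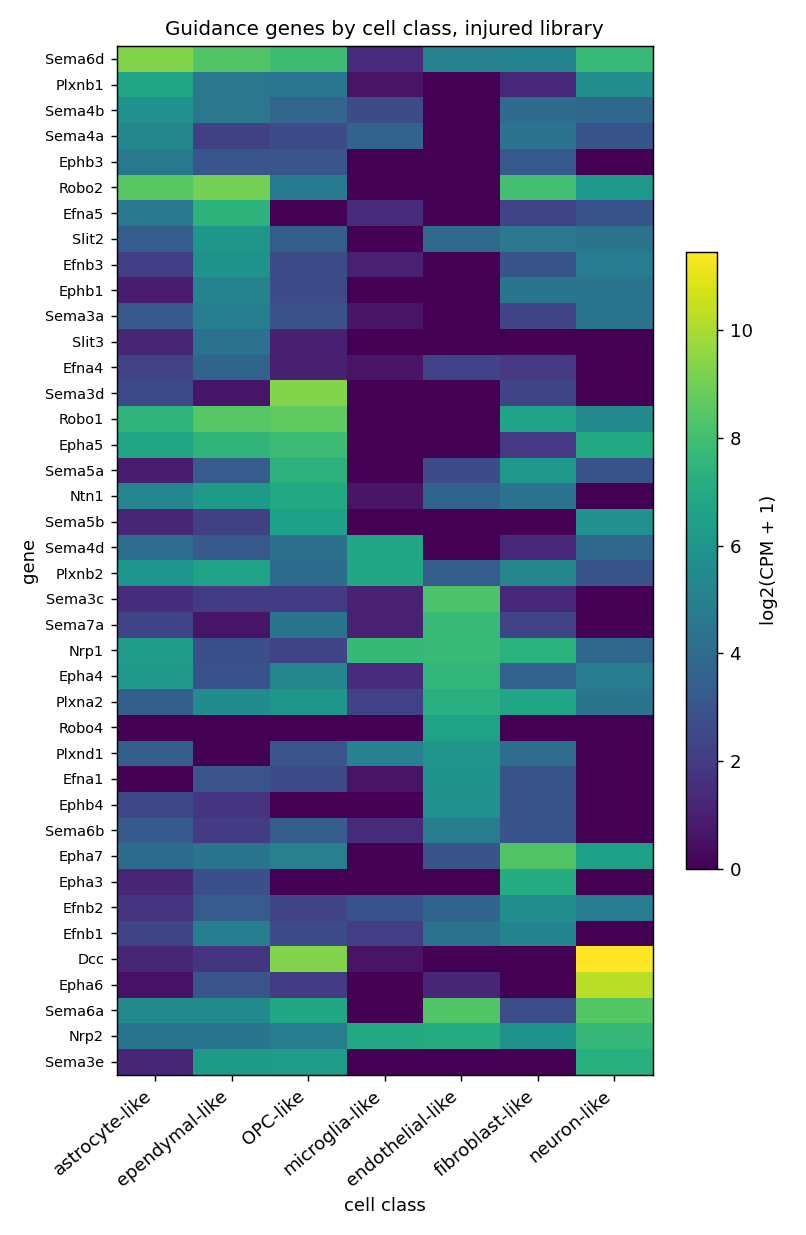
Level, as log2(CPM + 1), of the 40 members with at least 20 UMIs in their highest class (rows) in the 7 classes of the injured library (columns), ordered by the class where each is highest. Colours are to be read along a row. Robo4 is at 0 in all classes but the endothelial-like, Sema3d is highest in the OPC-like column, and Dcc is highest in the neuron-like column, followed by the OPC-like.

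Endothelial-like cells line vessels, and 13 of 27 members past the filter were higher there than in astrocyte-like cells (48.1%, beside 20% of all genes) and 11 lower (40.7%, beside 23.5%). Here and in the other comparisons of a class with astrocyte-like cells, the filter took the mean of the 2 groups compared. Members under 10 CPM in astrocyte-like cells, such as Robo4, Sema3c and Sema7a, passed it only through the other class. In both libraries the shares of higher members rest in part on such members. Robo4, the vascular Robo, had 75 UMIs in endothelial-like cells and 0 in astrocyte-like cells, at least 73.7-fold higher against a floor of 3 counts over the group. Sema3c was at 309.8 against 1.81 CPM (171-fold, 65.9 to 633) and Sema7a at 216 against 4.08 CPM (53.1-fold, 27.3 to 118). Epha4 was also highest here, at 183 CPM beside 71.1 CPM in astrocyte-like cells (2.57-fold, 2.03 to 3.26). Nrp1 was at 211 CPM in endothelial-like and 203 CPM in microglia-like cells, a difference within counting error.

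In OPC-like cells 13 of 29 were higher than in astrocyte-like cells (44.8%, beside 21.4% of all genes) and 9 lower (31.0%, beside 13.1%). Dcc, the netrin receptor, was at 632 against 1.36 CPM (613 and 3 UMIs, 466-fold, 158 to 2263). The secreted Sema3d was at 634 against 4.98 CPM (127-fold, 70.7 to 256). Sema5a, a transmembrane semaphorin, was at 165 against 0.91 CPM (182-fold, 49.6 to 1518). Ntn1, the ligand of Dcc, was also highest in these cells (123 CPM), 1.63-fold above ependymal-like cells (1.26 to 2.10), and Robo1 stood at 398 CPM in OPC-like and 362 CPM in ependymal-like cells, which counting error does not separate.

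Ependymal-like cells, which line the central canal, had 10 of 26 members higher than in astrocyte-like cells (38.5%, beside 18.1% of all genes) and 6 lower (23.1%, beside 16.8%). The named members were Sema3e, a secreted ligand of Plxnd1, at 74.3 against 1.36 CPM (54.7-fold, 18.3 to 269), the receptor Ephb1 at 33.6 against 0.91 CPM (37.1-fold, 9.82 to 314) and the ephrin Efnb3 at 59.0 against 3.17 CPM (18.6-fold, 8.71 to 47.5). Slit2 and Slit3 were both highest in this class. Slit2 was at 65.5 CPM, 2.95-fold above fibroblast-like cells (1.74 to 5.34), and Slit3 at 18.3 CPM. Robo2 was at 528 CPM, 1.44-fold above astrocyte-like cells (1.31 to 1.59), and Efna5 at 169 CPM, 7.31-fold above them (5.41 to 10.1).

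Microglia-like cells had 5 of 19 members higher than astrocyte-like cells (26.3%, beside 19.3% of all genes) and 12 lower (63.2%, beside 29.7%). The plexin Plxnc1, a receptor of Sema7a, was at 43.4 against 2.26 CPM (19.2-fold, 7.89 to 60.6), Sema4d at 115 against 16.3 CPM (7.04-fold, 4.93 to 10.3) and Nrp2 at 124 against 20.8 CPM (5.97-fold, 4.34 to 8.38). Robo1, Robo2 and Epha5 had no UMI in these cells. Plxnb2 was at 113 CPM, and the 96.8 CPM of ependymal-like cells was within its counting error.

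Fibroblast-like cells had 11 of 29 members higher (37.9%, beside 19.4% of all genes) and 9 lower (31.0%, beside 20.3%). Epha3 was at 134.5 against 1.36 CPM (99-fold, 32.9 to 488), but 45.4% of its UMIs came from 1 cell. Sema5a was at 67.9 against 0.91 CPM (75.0-fold, 19.7 to 637) and Efnb2 at 48.5 against 2.26 CPM (21.4-fold, 8.36 to 70.1). Epha7 was highest here, at 323 CPM.

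The 48 injured neuron-like cells had 14 of 31 members higher (45.2%, beside 11.1% of all genes) and 8 lower (25.8%, beside 23.7%), but single cells weighed heavily on the members named here. Epha6 (178 UMIs), Dcc (411 UMIs) and Sema3e (22 UMIs) led by ratio, and 1 cell held 50.6%, 48.9% and 54.5% of these UMIs. Without that cell they were at 689, 1766 and 78.3 CPM. The median neuron-like cell had 1708 UMIs. Counting each cell alike, 4 members were higher in place of 14, and the share of all genes so counted is not given.

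In the uninjured library 25 members had 20 or more UMIs in their highest class, and for 13 (52.0%, beside 43.6% of all genes) the interval lay above the next. Astrocyte-like cells were highest for 10 of them (39.9% of all genes), but the interval lay above the next class for 2 of the 10, Sema6d and Sema4b, which were also highest there after injury. The other 8, Slit2 and Epha4 included, were within counting error of the next class. Slit2 was 1.38-fold above neuron-like cells (0.85 to 2.38), and Epha4 was at 163 CPM in astrocyte-like and 160.4 CPM in endothelial-like cells. The neuron-like class was next for Slit2, Sema4a, Ntn1 and Ephb3, and also for Sema6d (342 CPM) and Sema4b (38.7 CPM). Astrocyte markers summed to 8660 CPM in the uninjured neuron-like cells, 62.3% of their level in astrocyte-like cells. All of these members, Sema6d and Sema4b included, were thus not set against cells low in astrocyte RNA. Endothelial-like cells were again highest for Sema3c, Nrp1 and Plxna2 and had 16 of 32 members higher than astrocyte-like cells (50.0%, beside 24.3% of all genes) and 8 lower (25.0%, beside 14.3%). Microglia-like cells had 6 of 21 higher (28.6%, beside 25.6%) and 10 lower (47.6%, beside 18.5%). Ependymal-like cells had 6 of 24 higher (25.0%, beside 24.5%) and 8 lower (33.3%, beside 12.6%). Fibroblast-like cells had 14 of 29 higher (48.3%, beside 22.6%) and 10 lower (34.5%, beside 19.1%). Neuron-like cells had 4 members higher (beside 5.95% of all genes) and 1 lower (beside 7.25%). The 14 uninjured OPC-like cells were too few to be compared, but held 113 UMIs of Dcc (1192 CPM) and 48 of Sema3d (506 CPM).

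The conditions were then compared within the other classes, where the uninjured side had few cells. In ependymal-like cells 6 of 25 members past the filter were higher after injury (24.0%, beside 3.25% of all genes) and 1 was lower (4.0%, beside 7.46%). Robo1 was at 362 against 101 CPM (613 and 16 UMIs, 3.58-fold, 2.19 to 6.31) and Efna5 at 169 against 69.4 CPM (286 and 11 UMIs, 2.43-fold, 1.34 to 4.93). Slit2 was at 65.5 against 6.31 CPM, with 111 injured UMIs and 1 uninjured UMI (10.4-fold, 1.82 to 414). Ntn1 was at 75.5 against 12.6 CPM (128 and 2 UMIs, 5.99-fold, 1.62 to 49.9) and Sema6a at 43.1 against 6.31 CPM (73 UMIs and 1, 6.83-fold, 1.19 to 273). Efnb3 had 100 injured and 0 uninjured UMIs, at least 3.12-fold higher against a floor of 3 counts. Slit2, Sema6a and Efnb3 were under 10 CPM in the uninjured cells, so they passed the filter only through their injured values. The 24.0% rests in part on these members. Slit2 and Ntn1 were thus higher in injured ependymal-like and lower in injured astrocyte-like cells. Of the 11 uninjured UMIs of Sema3c, the lower member, 81.8% came from 1 cell. The ependymal marker list summed to 3357 against 5981 CPM in injured and uninjured cells of the class, the astrocyte list to 2491 and 2789 CPM, and their part was not tested.

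In microglia-like cells 5 of 13 members were lower after injury (38.5%, beside 13.2% of all genes) and 0 were higher (beside 4.48%). Plxna4, a class A plexin, was at 55.0 against 282 CPM (104 and 33 UMIs, log2 ratio -2.34, ratio interval 0.13 to 0.30). Nrp2 was at 124 against 308 CPM (235 and 36 UMIs, -1.30). Both stayed past the threshold without the cells with most UMIs (-2.21 and -1.03) and in male cells (-2.03 and -1.46). Sema4d was at 115 against 231 CPM (-1.0), but its log2 ratio was -0.10 in male cells and -0.88 without the cells with most UMIs. Sema6d and Efnb1 rest on 3 uninjured UMIs each. Neutrophil markers summed to 556 CPM in injured and 214 CPM in uninjured microglia-like cells, and astrocyte markers to 62.4 and 214 CPM. The leading genes of this class included Lyz2, Ccl4 and Cd52, and no marker list for infiltrating macrophages was used. The paper reports peripheral immune cells in the tissue mainly in the acute and subacute phases. Whether a different mix of cells lies behind these differences was not tested.

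In endothelial-like cells 3 of 23 members were lower (13.0%, beside 5.84% of all genes) and 0 higher (beside 2.38%). The ephrin Efna1 was at 57.4 against 142 CPM (43 and 15 UMIs, -1.29) and Sema3g, a semaphorin of arterial endothelium, at 9.35 against 132 CPM (7 and 14 UMIs, -3.69). Efnb2, the arterial ephrin, was at 12 against 47.2 CPM (9 and 5 UMIs, -1.89), and without the cells with most UMIs its interval included no difference. Mural markers summed to 34.7 CPM in injured and 906 CPM in uninjured endothelial-like cells, and astrocyte markers to 110 and 490 CPM. Their part in these differences was not tested.

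Fibroblast-like cells came from cluster 8 (43 injured and 47 uninjured cells) and cluster 13 (48 uninjured cells and no injured cell). Over both, 2 of 26 members were higher after injury (7.69%, beside 8.59% of all genes) and 4 lower (15.4%, beside 10.3%). Within cluster 8 alone 1 was higher and 5 were lower (Robo1, Efna5, Sema6a, Epha8 and Sema3d). The share of all genes is not given for cluster 8. There Epha3 was at 134.5 against 38.3 CPM (3.51-fold, 1.45 to 11.1). Efna5 was at 4.16 against 53.6 CPM (3 and 7 UMIs) and Sema6a at 5.54 against 30.7 CPM (4 and 4 UMIs). Epha8 had 1 injured and 3 uninjured UMIs in cluster 8, and Sema3d 3 and 5. Robo1 was at 98.4 against 253 CPM (71 and 33 UMIs, log2 ratio -1.35, ratio interval 0.25 to 0.61). Over both clusters astrocyte markers summed to 1117 CPM in injured and 2155 CPM in uninjured fibroblast-like cells. Their part in these differences was not tested. Efnb1 and Sema3b, called lower over both clusters, were not called within cluster 8 (-0.81 and -1.20). Plxna2, called higher over both clusters (104 against 48.7 CPM), was at 104 against 99.6 CPM within cluster 8.

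**Figure D5:**
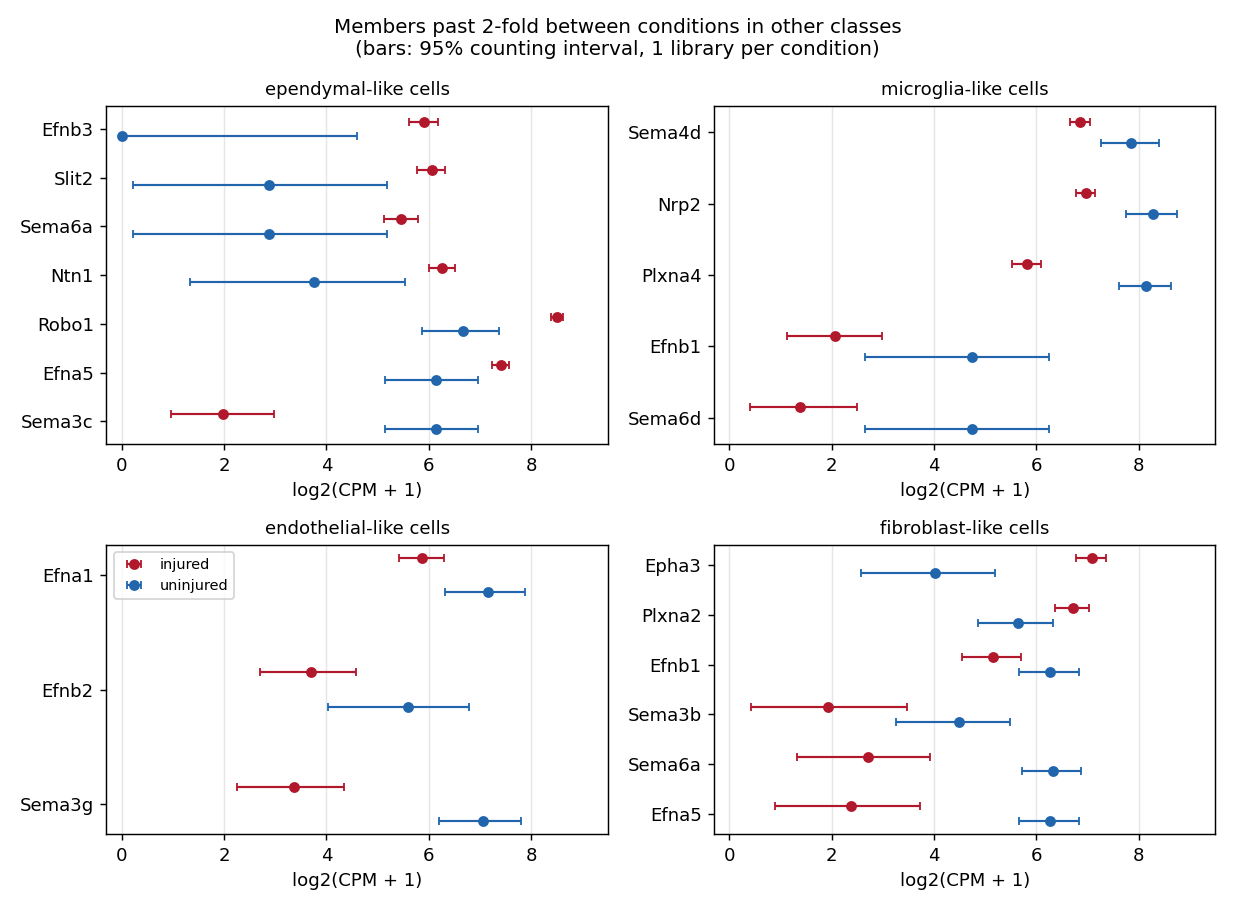
Level, as log2(CPM + 1), of the members past 2-fold between injured (red) and uninjured (blue) cells of 4 other classes, with 95% counting intervals of 1 library each. The uninjured intervals are wide, since these classes held 26 to 95 uninjured cells. Robo1 in ependymal-like cells (362 against 101 CPM) and Plxna4 in microglia-like cells (55.0 against 282 CPM) lie apart with more than 10 UMIs on both sides.

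Neuron-like cells had 10 of 31 members higher (32.3%, beside 9.43% of all genes) and 7 lower (22.6%, beside 14.9%). The higher were Nrp2, Epha7, Ephb2, Sema3e, Efnb2, Plxnc1, Sema5b, Epha6, Sema6a and Dcc. Without the cells with most UMIs, Epha7 and Efnb2 were not called. Ephb2, Sema3e, Plxnc1 and Sema5b then had 3 to 10 injured and 0 uninjured UMIs, so they passed the filter only through their injured values. The 32.3% rests in part on such members. Astrocyte markers summed to 8660 CPM in the uninjured and 1060 CPM in the injured cells of this class, so that cells of unlike make-up were set against each other. The 7 lower members (Epha4, Sema4a, Nrp1, Ntn1, Robo1, Robo2 and Efna5) were each also found in astrocyte-like cells, and whether they follow the astrocyte RNA was not tested.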

How the data were processed

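The authors deposited 1 matrix per condition of raw UMI counts from droplet libraries of 3′ cDNA (Chromium 3′ v3.1), not normalised, with cells called before deposit. The file headers give Cell Ranger 7.1.0 as their source. The submitters' processing notes name Cell Ranger 8.0.1 and the build mm10. Gene positions were taken by identifier from GENCODE on GRCm38 and promoters from RefSeq (GRCm38.p6).

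Limits of 500 and 50000 gene UMIs per cell removed 40 injured cells, all at the upper limit. Each cell was scaled to 10000 UMIs and logged in scanpy 1.11.5. Clustering took 15 principal components of the 2000 most variable genes, a graph of 15 neighbours and Leiden (igraph 0.11.9) at resolution 0.5. Intervals were computed in scipy 1.17.1. The guidance genes, tdTomato-WPRE, EGFP and the enhancer features were left out of the clustering. A cluster took a class name from its highest mean marker score (above 0.2), provided that 3 or more markers reached 10% of its cells and that its 10 leading genes held more markers of no rival class. A cluster with astrocyte and neuron markers stayed unnamed (9 injured and 591 uninjured cells). Scrublet called 2 of 5038 cells (0.0397%), too few to have worked, and no doublets were removed.

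UMIs were summed per class and condition and given as CPM with exact Poisson 95% intervals. Ratios have exact conditional binomial 95% intervals, and 1 CPM was added to both sides of log2 ratios. A lower bound uses 3 counts over the group that had none. The ratio was tested on simulated data for the injured and uninjured astrocyte-like cells (9433 genes, 200 changed 4-fold), where 99.5% of the changed genes were recovered and intervals covered 95.7% of true ratios. Named were all members past the filter in astrocyte-like cells, the 3 members per other class with the highest ratio over astrocyte-like cells among those with 20 or more UMIs, and the 4 highest and 4 lowest of the effector list. Members, lists and tests were chosen with earlier results of these data known. The barcode libraries were not used here.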

Additional observations from a re-analysis of the deposited data

Results flagged for a closer look

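The entries here are members called higher in some classes and lower in others between the injured and uninjured libraries. Their difference between classes was not tested, as each condition had 1 library. All values are log2 ratios of injured over uninjured cells.

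Slit2 was at 3.19 in ependymal-like and -2.00 in astrocyte-like cells. Ntn1 was at 2.49 in ependymal-like, -1.07 in astrocyte-like and -6.13 in neuron-like cells. The uninjured ependymal-like side of Slit2 and Ntn1 held 1 and 2 UMIs. Robo1 was at 1.83 in ependymal-like and -2.74 in neuron-like cells. Efna5 was at 1.27 in ependymal-like, -3.90 in fibroblast-like and -3.01 in neuron-like cells. Sema6a was at 1.35 in astrocyte-like, 2.59 in ependymal-like, 4.44 in neuron-like and -3.61 in fibroblast-like cells. Within the fibroblast-like cluster that both conditions shared, Efna5 was at -3.40 (3 and 7 UMIs) and Sema6a at -2.27 (4 and 4 UMIs). Nrp2 was at 3.63 in neuron-like and -1.30 in microglia-like cells. In injured neuron-like cells 1 cell held 41.4% of the Nrp2 and 56.9% of the Sema6a UMIs. Without the cells with most UMIs these neuron-like log2 ratios were 3.31 and 3.83. Astrocyte markers summed to 8660 CPM in uninjured and 1060 CPM in injured neuron-like cells, and their part in the neuron-like values was not tested. Efnb2 was at 4.83 in neuron-like and -1.89 in endothelial-like cells, and all 4 of its injured neuron-like UMIs came from 1 cell.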

How the results depend on the processing

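No paired analysis was possible because there was 1 library per condition. In astrocyte-like cells, 2 members were higher and 3 lower. The higher count was 9 with no filter on low values, 1 with a mean of at least 30 CPM and 1 in cells with an Aldh1l1 UMI. The lower count was 1 in cells with an Aldh1l1 UMI, 6 with each cell counted alike, and 7 for cluster 1 against the other uninjured clusters. In the pathway list 4 genes were lower in male cells, in place of 7. With each cell counted alike, neuron-like cells had 4 members higher than injured and 2 higher than uninjured astrocyte-like cells, and between conditions 0 fibroblast-like higher, 3 microglia-like lower and 4 neuron-like higher. At Leiden resolution 1.0, uninjured neuron-like cells had 2 members higher and 0 lower than astrocyte-like cells. In the fibroblast-like cluster that both conditions shared, 1 member was higher in place of 2. Without the cell with most UMIs of each member, 0 members were lower in injured ependymal-like cells, and 1 was higher and 2 lower in microglia-like cells. Plxna2, Plxna4 and Ephb1 were then also called higher in injured ependymal-like cells. The alternatives for the uninjured classes and for conditions within other classes, and those of cluster 1, the shared fibroblast-like cluster, the unnamed cluster and the cell with most UMIs, were chosen after seeing the data. The share of all genes is not given beside the counts under these alternatives, so the counts are not read as traits of the members. The causes were not tested.

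Of 336 log2 ratios of the 21 named members in astrocyte-like cells under all alternatives, 302 stayed within the main counting interval, 34 moved outside it and 0 of the 5 called members changed sign. Among the members not called, Efna5, Epha7, Ephb3, Nrp2 and Sema6d changed sign under 1 or more alternatives (Nrp2 from 0.76 to -0.79 in male cells, Epha7 from -0.60 to 0.25 in cells with an Aldh1l1 UMI, Efna5 from -0.03 to 0.76 in male cells). Depth limits the other classes: 1 UMI was 8.55 CPM in uninjured microglia-like and 6.31 CPM in uninjured ependymal-like cells, so a member under about 3 counts there could not be told from absent.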
